A study of Mus musculus with 32 samples.

Results

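The Sox genes described here were 9 of the 23154 genes in the expression tables, namely Sox2, Sox3, Sox4, Sox9, Sox10, Sox11, Sox17, Sox18 and Sox21, and they were taken by gene symbol. A further 10 Sox genes of the tables (Sox1, Sox5, Sox6, Sox7, Sox8, Sox12, Sox13, Sox14, Sox15 and Sox30) were used for comparison. Single cells came from 7 C57BL/6J mouse embryos (3 of embryonic day E9.5, 2 of E10.5, 2 of E11.5) and from 8 organs, which were heart, liver, lung, skin, intestine, somite, forebrain and hindbrain, and no mutation or treatment was named for any of them. Embryo 2 of E9.5 is labelled female and the others male, embryo 1 of E9.5 gave no lung or skin cells, and embryo 3 of E9.5 gave no brain or heart cells and had its organs sequenced in pools that the cell names separate. The organs were dissected by hand and the cells were picked one by one with a mouth pipette, so a share of cells describes the picked cells and need not be the share in the organ. Cells belonged to 4 major groups (neuronal, epithelial, mesoderm-derived and hematopoietic), and many cells of the intestine, liver, lung and skin also carried an epithelial (Epi) or mesenchymal (Mes) label.

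Sox proteins are transcription factors that bind DNA through an HMG box like that of the testis-determining factor Sry. They fall into subgroups of related proteins: SoxB1 (Sox2, Sox3) is known for keeping neural progenitors undifferentiated, SoxB2 (Sox21) for opposing SoxB1 in the neural tube, SoxC (Sox4, Sox11) for expression in young neurons and in many embryonic mesenchymes and epithelia, SoxE (Sox9, Sox10) for cartilage, neural crest, glia and several epithelial buds, and SoxF (Sox17, Sox18) for endothelium. In the lung bud, Sox2 is a classical marker of the proximal airway epithelium and Sox9 of the distal tips.

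The positions are those of the GRCm38 (mm10) build with GENCODE M21 annotation. Sox2 was at chr3:34650405-34652461 on the + strand, as a single exon within the span of the longer transcript Sox2ot, with which it shared 0 exonic bases. Sox3 was a single exon at chrX:60891366-60893430 (-), Sox21 at chr14:118233232-118237030 (-), Sox4 at chr13:28948919-28953713 (-) and Sox11 at chr12:27334264-27342574 (-). Sox9 had 3 exons at chr11:112782224-112787760 (+) and Sox18 2 exons at chr2:181669836-181671640 (-). Sox10, with 4 transcripts, was at chr15:79154908-79165240 (-) and Sox17, with 8 transcripts, at chr1:4490931-4497354 (-). Opposite-strand transcripts shared 2616 exonic bases with Sox4, 804 with Sox17 and 713 with Sox21, and since the strand setting of the counting was not given in the sources used here, their reads cannot be told apart from those of the Sox gene.

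Upstream sequences from RefSeq (GRCm38.p6) were at hand for 4 of the 9 genes: Sox2, Sox4, Sox11 and Sox21. The 250 bases before the RefSeq start of Sox2 (chr3:34649745-34649994, + strand) and Sox21 (chr14:118237031-118237280, - strand) are shown because these genes were expressed in overlapping cells, and that of Sox4 (chr13:28953700-28953949, - strand) because it was expressed far more widely. Capitals mark CCAAT boxes, searched by these 5 letters on both strands. RefSeq places the start of Sox2 upstream of the GENCODE start given above, and that of Sox4 within the GENCODE exon. The last marked box of Sox4 therefore lies inside that exon.
Sox2: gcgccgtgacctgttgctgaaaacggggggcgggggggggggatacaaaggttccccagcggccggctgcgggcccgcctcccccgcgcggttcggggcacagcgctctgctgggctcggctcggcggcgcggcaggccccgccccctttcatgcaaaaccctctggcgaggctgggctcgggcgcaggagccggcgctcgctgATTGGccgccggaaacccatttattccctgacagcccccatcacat
Sox21: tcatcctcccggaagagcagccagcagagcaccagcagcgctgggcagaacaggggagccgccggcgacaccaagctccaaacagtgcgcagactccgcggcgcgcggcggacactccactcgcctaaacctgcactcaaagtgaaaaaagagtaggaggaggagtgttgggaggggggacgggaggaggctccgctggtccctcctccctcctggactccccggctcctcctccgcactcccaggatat
Sox4: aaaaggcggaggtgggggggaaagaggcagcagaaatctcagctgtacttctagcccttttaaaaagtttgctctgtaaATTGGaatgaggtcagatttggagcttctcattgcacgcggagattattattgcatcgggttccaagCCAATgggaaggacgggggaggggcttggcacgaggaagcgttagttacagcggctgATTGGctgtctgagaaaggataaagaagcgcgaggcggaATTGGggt
The window of Sox2 held 27 CpG sites and 1 CCAAT box, that of Sox21 17 CpG sites and 0 boxes, that of Sox4 11 CpG sites and 4 boxes, and that of Sox11 17 CpG sites and 1 box. The median of 32851 upstream windows of this length was 6 CpG sites, and 33.8% of them held a CCAAT box. The short core ACAAT, a form of the site that Sox proteins bind, was searched on both strands. It occurred in none of these 4 windows and in 27.7% of all windows.

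The cells that the study kept were used. Of 1916 cells in the tables, 1851 had at least 2000 detected genes and 1819 were in the kept set. With 14 pairs of identical cell columns (the same sample and the same embryo) counted once each, 1805 remained, 1801 of them with a major group. They held between 20326 and 2524348 unique molecular identifiers (UMIs, 1 per captured RNA molecule), with a median of 306271. The median was 928653 in embryo 2 of E9.5 and between 187427 and 309740.5 in the other 6 embryos. The same 96 cell numbers were used in several samples, so a cell was identified by sample and number. Embryos 1 and 2 of E9.5 carried a HiSeq 2500 label and all other embryos a HiSeq 4000 label, and in brain and heart every E9.5 cell was of the first kind, so that there E9.5 and the instrument label cannot be told apart. The methods of the study name the HiSeq 4000 alone, so this division rests on the labels. Values are given for an embryo as the mean over its cells of log2(TPM/10 + 1), where TPM is UMIs per 1000000 UMIs of the cell, and a gene was called expressed in a cell at a value of 1 or more, which is 10 TPM. The groups were clustered from these same cells, so the marker shares given here describe the labels and do not test them. For 7 neural progenitor genes the median share was 79.8% in neuronal, 58.7% in mesoderm-derived, 30.3% in epithelial and 15.0% in hematopoietic cells. The 5 neuron genes Tubb3, Dcx, Elavl3, Stmn2 and Map2 were expressed in a median of 65.2% of neuronal cells and of 3.11% to 6.58% of the other groups, 6 endoderm epithelial genes in 72.9% of epithelial cells and 1.42% to 2.76% elsewhere, Col3a1, Pcolce and Cdh11 in 77.7% of mesoderm-derived, 30.3% of epithelial, 9.69% of neuronal and 8.13% of hematopoietic cells, and 4 hematopoietic genes in 80.9% of hematopoietic cells. Among Epi cells, the lung regulator Nkx2-1 was expressed in 94.2% of 52 lung cells and 0.427% of 234 other cells, and the surface ectoderm gene Trp63 in 91.0% of 78 skin cells and 0.481% of 208 others. The liver markers were less specific, with Afp in all 47 liver cells and 41.4% of 239 others, Ttr in all 47 and 43.9%, and Hnf4a in 87.2% and 12.97%.

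**Figure D1:**
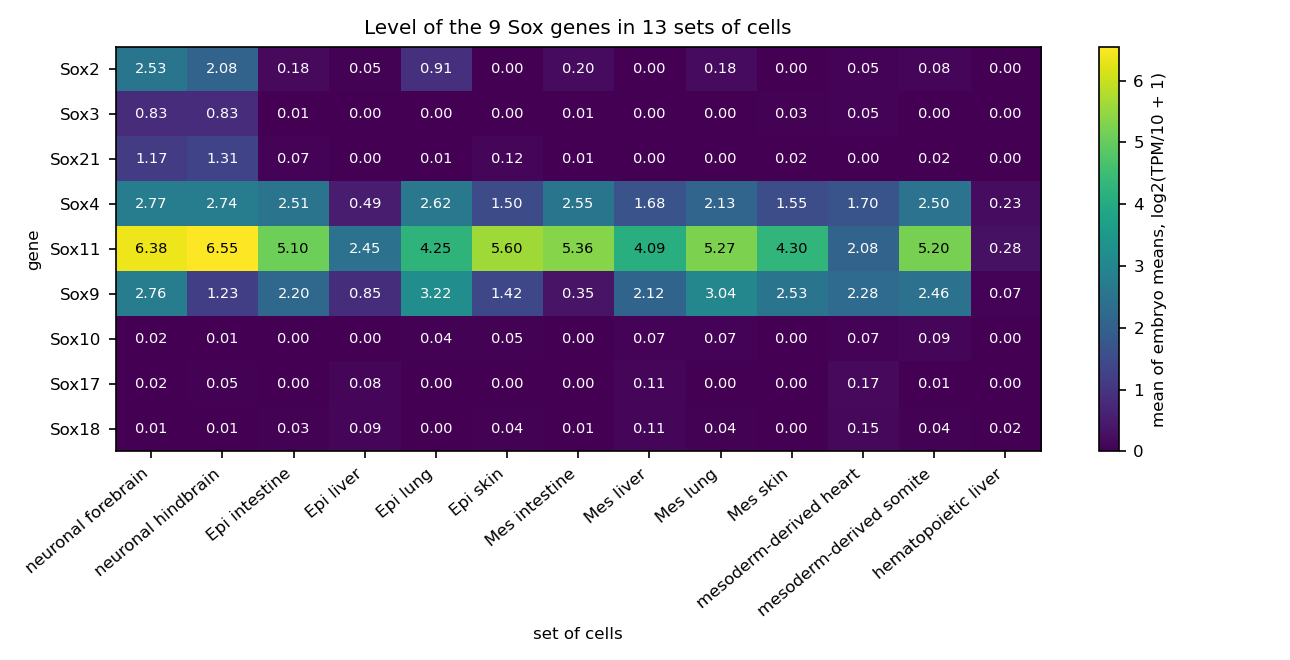
Level of the 9 Sox genes (rows) in 13 sets of cells (columns) as the mean over embryos of log2(TPM/10 + 1), with the value written in each field. Sox2, Sox3 and Sox21 were highest in the neuronal columns (Sox2 2.53 in forebrain and 2.08 in hindbrain), Sox11 was above 2 in all columns but hematopoietic liver (0.28), and Sox10, Sox17 and Sox18 stayed at or below 0.17.

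The groups were made by clustering these same cells, so the levels by group are a description without a test. Sox2, Sox3 and Sox21 were highest in neuronal cells: the mean level over 6 embryos there was 2.31 ± 0.57 (SD) for Sox2, 0.83 ± 0.37 for Sox3 and 1.25 ± 0.57 for Sox21, and in the other 3 groups each mean was at 0.25 or less. The epithelial level of Sox2 was 0.25 ± 0.31 (n = 7 embryos), with 0.81 in embryo 1 of E11.5. Sox11 was at 6.54 ± 0.73 in neuronal cells (n = 6 embryos), 4.76 ± 0.34 in epithelial cells, 4.09 ± 0.59 in mesoderm-derived cells and 0.66 ± 0.39 in hematopoietic cells (n = 7 each). Sox4 followed the same order at the ends, with 2.77 ± 0.29 in neuronal and 0.35 ± 0.17 in hematopoietic cells, while its epithelial (1.99 ± 0.58) and mesoderm-derived (2.01 ± 0.31) levels lay within each other's spread. Sox9 had like levels in neuronal (1.90 ± 0.32), epithelial (1.99 ± 0.44) and mesoderm-derived cells (2.22 ± 0.38), with overlapping ranges of embryos, against 0.18 ± 0.05 in hematopoietic cells. Sox10, Sox17 and Sox18 had their highest group level in mesoderm-derived cells, at 0.12 ± 0.068, 0.073 ± 0.065 and 0.091 ± 0.061 (n = 7 embryos).

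The shares of cells showed the same division. Sox2 was expressed in 315 of 1805 cells, of which 257 were neuronal, Sox3 in 133 (123 neuronal) and Sox21 in 186 (170 neuronal). Sox11 was expressed in 1531 cells, among them all 382 neuronal cells, Sox4 in 1073 and Sox9 in 922. Sox10 was expressed in 32 cells (28 of them mesoderm-derived), Sox17 in 27 (24 mesoderm-derived) and Sox18 in 32 (27 mesoderm-derived). Hematopoietic liver cells, as a class in which Sox2, Sox3 and Sox21 would be background, expressed each of them in 0 of 178 cells at a median depth of 451166 UMIs per cell, which allows a share of up to 1.69%. In the brain, hematopoietic cells did express them: Sox2 in 1 of 16 forebrain and 2 of 17 hindbrain cells, Sox3 in 0 and 1, Sox21 in 2 and 2, and Sox11 in 12 and 16. The limit from liver therefore does not hold for brain, and the part of RNA from neighbouring cells was not tested. The median depth of neuronal cells was 252307 UMIs, and intervals and such limits cover counting error only.

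Each embryo gave several organs, and a comparison of organs does not depend on the clustering. The means of all cells of an organ were compared with the mean of the other 7 organs by limma with day as a covariate, and calls required both a difference of 1 or more and an adjusted p below 0.05. Such a mean depends both on which cells were picked and on the level in them. In forebrain 2 of the 9 Sox genes were called, both higher, where 1.21% of 17427 genes were called. In hindbrain 3 were called, all higher (2.18% of genes), in heart 1, lower (2.23%), in liver 3, all lower (2.50%), and in lung 1, higher (0.574%). None was called by limma in intestine (1.11%), skin (1.55%) or somite (0.855%), where 3, 3 and 5 of the 9 had an unadjusted p below 0.05 and edgeR called 1 (Sox10, lower), 1 (Sox2, lower) and 0. The median difference of the 9 genes was 0.59 in forebrain, 0.68 in hindbrain and -0.35 in liver, and between -0.16 and 0.045 in the other 5 organs, against -0.0326 to -0.0024 for all genes.

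Sox2, a SoxB1 factor and a pluripotency gene, had its highest levels in the brain. Over all forebrain cells it was lowest in embryo 1 of E10.5 at 0.88 and highest in embryo 1 of E9.5 at 3.27, with a median of 2.38 over 6 embryos. The forebrain cells of embryo 1 of E10.5 were 9 neuronal, 10 hematopoietic and 10 mesoderm-derived cells, and the level in neuronal cells alone is given below. In hindbrain Sox2 ran from 0.86 through a median of 2.06 to 2.80. Every embryo was higher in forebrain, and also in hindbrain, than in the mean of its other organs, though the lowest brain values overlapped the highest lung value (1.83 in embryo 1 of E11.5). Sox2 exceeded the mean of the other organs by 1.83 ± 0.20 (SE) in forebrain (limma, adjusted p = 3.6e-09) and by 1.48 ± 0.20 in hindbrain (adjusted p = 1.3e-07). Both calls held under every alternative tried.

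Within neuronal cells the level of Sox2 per embryo in forebrain was 3.29 and 3.32 at E9.5, 2.10 and 1.67 at E10.5, and 2.30 and 2.52 at E11.5. In hindbrain it was 2.80 and 2.71 at E9.5, 2.31 and 1.69 at E10.5, and 1.001 and 1.99 at E11.5. The E9.5 embryos were the highest in both regions without overlap with the later days. The fitted slope in hindbrain was -0.63 ± 0.17 per day (limma, adjusted p = 0.022; 2.22% of 17179 genes called, and 1 of 9 Sox genes), while that in forebrain was -0.45 ± 0.17 (adjusted p = 0.095). The forebrain and hindbrain slopes were not shown to differ (difference 0.18, 95% interval -0.31 to 0.68). The hindbrain call was lost in the HiSeq 4000 embryos alone (-0.50 per day, adjusted p = 0.87) and without embryo 1 of E11.5 or embryo 1 or 2 of E9.5. In the same cells the 5 neuron genes all rose over days in both regions, and their summed level was 10.95 to 11.62 at E9.5 and 22.2 to 25.6 at E11.5 in hindbrain. Their part in the Sox2 slope was not tested.

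Sox3 is the X-linked SoxB1 gene, close in sequence to Sox2. Its level in neuronal forebrain cells was 1.16 and 0.98 at E9.5, 1.20 and 0.66 at E10.5, and 0.68 and 0.31 at E11.5. Embryo 2 of E9.5, which carries a female label while the others are male, did not stand apart. The slope of Sox3 in forebrain was -0.29 ± 0.07 per day, with an adjusted p of 0.0044 but below the size of 0.5 set for a call. In hindbrain it was -0.23 ± 0.07 (adjusted p = 0.061), and in the HiSeq 4000 embryos alone -0.65, which was called (adjusted p = 0.0079). In the comparison of organs Sox3 exceeded the mean of the others by 0.54 ± 0.08 in forebrain (limma, adjusted p = 2.5e-06) and by 0.69 ± 0.08 in hindbrain (adjusted p = 3.1e-09), again short of the size set for a call. On the scale log2(TPM + 1), which spreads low values more, the same differences were 1.31 and 1.68 and both were called.

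Sox21, the SoxB2 gene, was expressed in 88 of 184 neuronal forebrain cells and 78 of 183 neuronal hindbrain cells. In forebrain its level was 1.75 and 1.57 at E9.5, 1.503 and 1.38 at E10.5, and 0.56 and 0.29 at E11.5. No E11.5 value reached any earlier value. The slope was -0.62 ± 0.14 per day (limma, adjusted p = 0.0012; 2 of 9 Sox genes and 7.89% of 17179 genes called in forebrain). It held in the HiSeq 4000 embryos alone (-1.01, adjusted p = 2.3e-04) and was lost without embryo 2 of E11.5 (adjusted p = 0.080). In hindbrain the values were 0.27 and 1.40 at E9.5, 2.32 and 1.97 at E10.5, and 0.31 and 1.57 at E11.5. Here the lowest embryos came from E9.5 and E11.5 and the highest from E10.5, and the slope over all embryos was 0.05 ± 0.14. In the HiSeq 4000 embryos alone, which leave E10.5 and E11.5 in the brain, the hindbrain slope was -1.21 per day and was called (limma, adjusted p = 1.5e-05), so both regions fell between those days. The difference between the forebrain and hindbrain slopes of Sox21 over all embryos, -0.67 ± 0.19 per day, had an adjusted p of 0.082 and was not called (0.466% of genes called). It was called without embryo 1 of E10.5 (-0.67, adjusted p = 0.044) and without embryo 1 of E11.5 (-1.12, adjusted p = 2.1e-04).
Over all hindbrain cells Sox21 ranged from 0.27 through a median of 1.31 to 2.33, was higher than the mean of other organs in 5 of 6 embryos, and exceeded that mean by 1.06 ± 0.15 (limma, adjusted p = 3.5e-07). The size fell to between 0.84 and 1 when embryo 1 or 2 of E10.5 or embryo 2 of E11.5 was left out, which ended the call.

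Sox2, Sox3 and Sox21 were expressed in overlapping cells. Of 382 neuronal cells, 257 expressed Sox2, 123 Sox3 and 170 Sox21. Sox2 was expressed in 106 of the 123 Sox3 cells (86.2%) and in 138 of the 170 Sox21 cells (81.2%), against 67.3% of all neuronal cells. Sox2 was also expressed in 177 of the 216 neuronal Sox9 cells (81.9%). Over 89 embryo means by group and organ the levels of Sox3 and Sox21 had a Pearson r of 0.87, Sox2 and Sox3 of 0.82, and Sox2 and Sox21 of 0.75, which are descriptions because the means share libraries and major groups. Among 14606 genes the patterns most like Sox2 were those of the synaptotagmin gene Syt11 (r = 0.85), Sox3 and Sox1 (0.82), those most like Sox3 were Sox1 (0.89), Scrn1 (0.88) and Sox21 (0.87), and those most like Sox21 were Sox3, LOC105245869 and Fam181a (both 0.83).

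Neuronal forebrain and hindbrain cells were split by how many of the 5 neuron genes they expressed. This split was chosen after values were seen and is a description. Sox2 was expressed in 11 of 11 cells without a neuron gene, in 81.8% of 55 cells with 1, 90.5% of 63 cells with 2, 89.8% of 49 cells with 3, 56.5% of 46 cells with 4 and 45.5% of 143 cells with all 5. Sox3, Sox21 and Sox9 also had their lowest shares in cells with all 5 genes, at 18.2%, 27.3% and 39.2%, against 45.5%, 63.6% and 90.9% of cells with none. Sox11 moved the other way, from a mean level of 5.75 in cells with none to 7.41 in cells with all 5, and so did Sox4, from 2.03 to 3.38. The median depth fell from 1115880 to 184318 UMIs across the same bins, and its part in the shares was not tested across bins. In embryo 1 of E9.5, where the depth was alike (295400 UMIs in 27 cells with 0 or 1 neuron genes and 250723 UMIs in 16 cells with 4 or 5), Sox2 was expressed in 85.2% and 56.3% of cells, Sox3 in 51.9% and 12.5%, Sox21 in 40.7% and 6.25%, and Sox9 in 74.1% and 18.8%, while Sox11 was at 4.96 and 6.69. Embryo 2 of E9.5 showed the same directions, with Sox2 in 88.2% of 34 and 27.3% of 11 cells at depths of 1119448.5 and 1066614 UMIs. The bins also followed the day. Cells with 0 or 1 neuron genes came mostly from these 2 embryos, while of the cells with 4 or 5, 29 and 37 came from the E10.5 embryos and 54 and 42 from the E11.5 embryos. In embryo 1 of E10.5, cells with 4 or 5 neuron genes expressed Sox21 in 82.8% and Sox3 in 62.1%, above the shares in the cells with 0 or 1 of either E9.5 embryo.

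**Figure D2:**
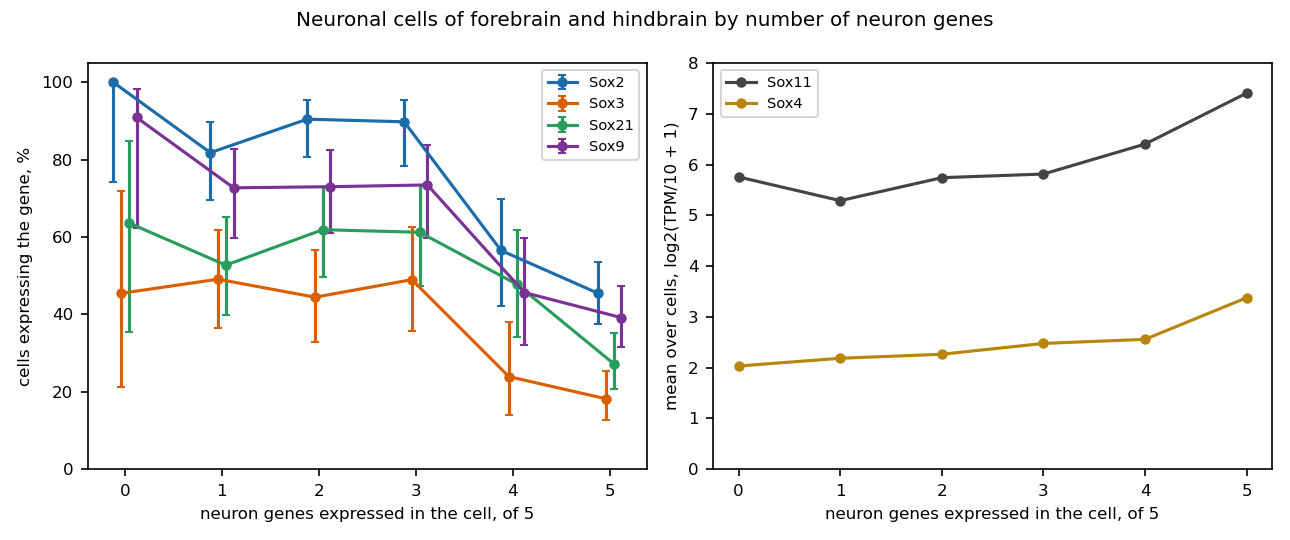
Neuronal forebrain and hindbrain cells by the number of 5 neuron genes expressed (x axis). Left, percent of cells expressing Sox2, Sox3, Sox21 and Sox9, with 95% Wilson intervals over cells. Right, mean level of Sox11 and Sox4 in log2(TPM/10 + 1), without error bars. The 4 shares were lowest in cells with all 5 neuron genes (Sox2 45.5%), and Sox11 was highest there (7.41).

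Among the Epi and Mes sets, the share of cells expressing Sox2 was largest in lung epithelium. Of 52 Epi lung cells, 16 expressed Sox2 (30.8%, 95% Wilson interval 19.9 to 44.3), against 4 of 109 in Epi intestine, 1 of 47 in Epi liver and 0 of 78 in Epi skin. In mesenchyme it was expressed in 6 of 74 Mes intestine cells, 3 of 125 in Mes lung, 0 of 76 in Mes liver and 0 of 77 in Mes skin. By embryo the level in Epi lung was 1.05 (3 cells) and 0.05 (12 cells) in embryos 2 and 3 of E9.5, 0.00 (5 cells) and 0.02 (11 cells) at E10.5, and 2.58 (18 cells) and 1.76 (3 cells) at E11.5. Both E11.5 embryos lay above all others, and 3 of the 4 earlier ones were near 0. The slope was 0.81 ± 0.17 per day (limma, adjusted p = 0.0023; 1 of 9 Sox genes and 2.65% of genes called). It exceeded the mean slope of Epi intestine, liver and skin by 0.79 ± 0.20 (adjusted p = 0.016; 1.65% of genes called). In the HiSeq 4000 embryos the slope was 1.22 (adjusted p = 3.1e-05), but without embryo 1 of E11.5 it was 0.44 (adjusted p = 0.20), and the difference of slopes was lost without embryo 3 of E9.5 or either E11.5 embryo. Pooled over days, Sox2 exceeded the other Epi organs in lung by 0.83 ± 0.18 (adjusted p = 0.0017), below the size set for a call. On the scale log2(TPM + 1) that difference was 1.70 and was called.

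Sox2 and Sox9 were expressed together in some cells of this epithelium and apart in others. In embryo 1 of E11.5, 9 of 18 Epi lung cells expressed Sox2 without Sox9, 4 expressed Sox9 without Sox2, 4 expressed both and 1 neither, so that 4 of its 8 Sox9 cells also expressed Sox2. In embryo 2 of E11.5, 1 of the 2 Sox9 cells did, and the 1 Sox2 cell of embryo 2 of E9.5 expressed Sox9. At E10.5 Sox9 was expressed in all 16 cells and Sox2 in 0 cells, with 1 Sox2 UMI among them. Over all 52 cells there were 10 with Sox2 alone, 34 with Sox9 alone, 6 with both and 2 with neither, and the 3 embryos without a Sox2 cell gave 5, 11 and 12 of those with Sox9 alone. Of the 16 Sox2 cells 15 also expressed Nkx2-1. The exception was the 1 Sox2 cell of embryo 2 of E9.5, which was the only Sox2 cell before E11.5. The level of Nkx2-1, between 2.67 and 4.00 in the 6 embryos, did not follow the day (slope 0.12, limma, adjusted p = 0.80). The median depth was 202098 UMIs in the E11.5 embryo 1 cells and 256424 over all 52.

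Sox11, a SoxC factor of immature neurons, was the Sox gene found in most cells. Over all forebrain cells its level ran from 3.93 in embryo 1 of E10.5 through a median of 5.86 to 7.58 in embryo 1 of E11.5, and over hindbrain cells from 5.40 through 5.98 to 7.45. The lowest forebrain value came from the embryo with 9 neuronal, 10 hematopoietic and 10 mesoderm-derived forebrain cells. The hindbrain was above the mean of the other organs in 6 of 6 embryos and the forebrain in 5 of 6. The differences were 1.72 ± 0.41 in forebrain (limma, adjusted p = 0.0033) and 1.96 ± 0.41 in hindbrain (adjusted p = 3.3e-04), and the forebrain call was lost without embryo 1 of E11.5 (1.32, adjusted p = 0.071). In heart the level ran from 0.83 through 2.27 to 3.15, lower than the other organs in 6 of 6 embryos (difference -2.80 ± 0.41, adjusted p = 7.6e-07). In liver it ran from 0.00 through 0.83 to 4.30, lower in 7 of 7 embryos (difference -3.21 ± 0.38, adjusted p = 1.7e-08).
The liver values fell apart by day, with 3.71, 4.30 and 2.54 at E9.5, 0.83 and 0.29 at E10.5 and 0.00 and 0.28 at E11.5. Most later liver cells were hematopoietic, and hematopoietic liver cells had a Sox11 level of at most 0.74 in any embryo. The part of the mix of cells in the liver values was not tested.

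Within epithelium Sox11 also differed between organs. In Epi liver it was 4.10, 3.36 and 1.99 at E9.5, 2.24 and 1.24 at E10.5 and 1.74 at E11.5, against 3.34 to 6.04 in all other Epi means. The difference from the other 3 organs was -2.54 ± 0.29 (limma, adjusted p = 1.8e-09), and Sox11 was 1 of 3 Sox genes called lower in Epi liver, of 8 tested, where 6.64% of 15608 genes were called. In Epi skin it ran from 5.18 through 5.71 to 6.03, above the other organs' mean in 6 of 6 embryos (1.67 ± 0.29, adjusted p = 2.4e-05; 1 of 8 called, 4.27% of genes). In Epi intestine the difference of 1.004 ± 0.28 (adjusted p = 0.012; 1 of 8 called, 2.10% of genes) sat at the size set for a call and was lost in 7 of 16 alternatives, among them the fit with the embryo as a block.

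Sox11 moved with day in opposite directions in forebrain and heart. In neuronal forebrain cells it was 5.27 and 5.67 at E9.5, 5.20 and 6.99 at E10.5, and 7.63 and 7.52 at E11.5, a slope of 1.05 ± 0.25 per day (limma, adjusted p = 0.0029). In mesoderm-derived heart cells it was 2.23 and 3.23 at E9.5, 2.58 and 2.49 at E10.5, and 1.09 and 0.88 at E11.5, a slope of -0.87 ± 0.25 (adjusted p = 0.031; 1 of 9 called, 2.90% of genes). The E11.5 embryos were the 2 highest in forebrain and the 2 lowest in heart. In the HiSeq 4000 embryos alone the slopes were 1.48 (adjusted p = 0.13) and -1.55 (adjusted p = 0.11). The forebrain call was lost without embryo 1 of E11.5, and the heart call without either E11.5 embryo or embryo 2 of E9.5. In the same forebrain cells all 5 neuron genes rose, by 1.53 to 2.39 per day, and their summed level was 3.66 to 6.93 at E9.5 and 21.4 to 25.6 at E11.5. In the heart cells the summed level of 10 endothelial genes was 9.60 to 11.51 at E9.5 and 3.70 to 4.10 at E11.5. The part of these genes in the Sox11 slopes was not tested.

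Sox4, the other SoxC gene here, shared most of its cells with Sox11: 1023 of the 1073 Sox4 cells (95.3%) expressed Sox11, which was expressed in 1531 of 1805 cells. This was not particular to Sox4, since Sox11 was expressed in 87.5% (Sox18) to 100% (Sox10) of the cells of the other Sox genes described. In liver Sox4 ran from 0.045 through 0.65 to 2.12, lower than the mean of the other organs in 7 of 7 embryos (difference -1.47 ± 0.27, limma, adjusted p = 4.3e-05). Hematopoietic cells, the majority in the later livers, had a Sox4 level of at most 0.57 in any embryo. The part of the mix of cells was not tested for Sox4 either. In Epi liver Sox4 was 1.91, 0.70 and 0.30 at E9.5 and at most 0.05 later, a difference of -1.72 ± 0.39 from the other 3 organs (adjusted p = 7.6e-04). In Epi lung its difference was 1.11 ± 0.39 with an adjusted p of 0.069, called in 5 of the alternatives and not in the main test.
In Epi intestine Sox4 was 4.58, 3.46 and 2.19 in embryos 1 to 3 of E9.5, 1.71 and 2.66 at E10.5, and 1.45 and 1.54 at E11.5. The slope was -0.97 ± 0.29 per day (adjusted p = 0.043; 1 of 9 called, 2.0% of genes). That call held in only 7 of 16 alternatives. It was lost on the scale log2(TPM + 1) (adjusted p = 0.094), with edgeR (adjusted p = 0.21) and without any one embryo other than embryo 3 of E9.5 (smallest slope -0.66, without embryo 1 of E9.5). The 2 highest embryos were those with the HiSeq 2500 label, embryo 3 of E9.5 with the HiSeq 4000 label lay below both, and in the HiSeq 4000 embryos alone the slope was -0.40 (adjusted p = 0.96). In neuronal forebrain, Sox4 was 2.43 and 1.80 at E9.5 and 3.85 and 3.07 at E11.5, with a slope of 0.67 ± 0.32 (adjusted p = 0.22).

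**Figure D3:**
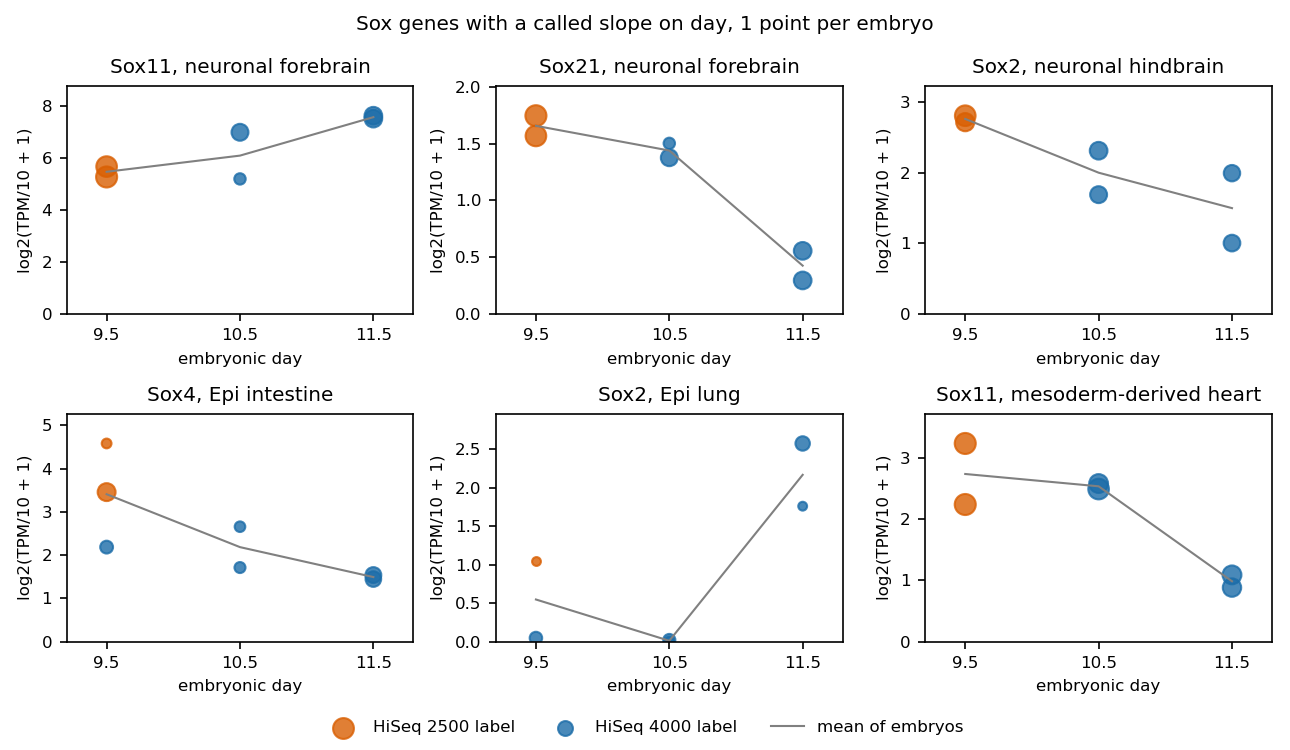
Level of a Sox gene in log2(TPM/10 + 1) against embryonic day for the 6 genes and sets with a called slope. Each point is an embryo, its area grows with the number of cells, its colour gives the instrument label, and the line joins the means of the embryos of a day. Sox2 in Epi lung was near 0 in 3 of 4 embryos before E11.5 and at 1.76 and 2.58 at E11.5, and Sox21 in neuronal forebrain was at most 0.56 at E11.5.

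Sox9, the SoxE factor of cartilage and of many epithelial buds, differed between organs, while of the 4 groups only hematopoietic cells stood apart. Over all lung cells it ran from 1.31 in embryo 2 of E9.5 through a median of 3.10 to 4.34, above the mean of other organs in 5 of 6 embryos. The difference was 1.26 ± 0.33 (limma, adjusted p = 0.017), and it was lost with edgeR and without embryo 1 or 2 of E10.5 or embryo 2 of E11.5 (lowest 0.97). Over liver cells it was 2.92, 1.37 and 0.89 at E9.5 and at most 0.23 later, lower than the other organs in 6 of 7 embryos (difference -1.25 ± 0.31, adjusted p = 0.0020). Most later liver cells were hematopoietic, and hematopoietic liver cells had a Sox9 level of at most 0.22 in any embryo. The part of the mix of cells in the liver values of Sox9 was not tested.

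Both layers of the lung had high Sox9. In Epi lung it was 1.67 and 4.16 in embryos 2 and 3 of E9.5, 4.17 and 4.99 at E10.5, and 1.65 and 2.69 at E11.5, above the mean of the other Epi organs in 6 of 6 embryos. The embryos at 1.65 and 1.67 lay inside the range of those organs (0.35 to 2.64) and the other 4 above it. The difference was 1.73 ± 0.36 (limma, adjusted p = 6.6e-04; 1 of 8 tested called, 2.09% of genes) and was called under every alternative. In Mes lung Sox9 ran from 1.47 through 3.26 to 3.97, also higher in 6 of 6 embryos (1.37 ± 0.37, adjusted p = 0.029; 1 of 8 called, 0.916% of genes), but that call was lost without any one of 5 of the 7 embryos and in thinned cells. The mean of the other Mes organs included intestine at 0.35 ± 0.23 (SD). Mes skin, at 2.53 ± 0.86 with embryos from 1.05 to 3.36, overlapped Mes lung at 3.04 ± 0.93.
Within the Epi label liver was the low organ, with values from 0.35 through 0.93 to 1.22 and a difference of -1.42 ± 0.36 (adjusted p = 0.0022).

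Intestinal mesenchyme was low in Sox9. The level in Mes intestine was 0.52, 0.71 and 0.36 at E9.5, 0.40 and 0.27 at E10.5, and 0.03 and 0.13 at E11.5, while every Mes mean of lung, skin and liver was at 1.05 or more, without overlap. The difference was -2.21 ± 0.35 (limma, adjusted p = 1.9e-05; 1 of 8 called, 1.51% of genes), lower in 7 of 7 embryos and called under every alternative. Sox9 was expressed in 8 of 74 Mes intestine cells (10.8%, 95% Wilson interval 5.58 to 19.9), against 92 of 125 in Mes lung, 57 of 77 in Mes skin and 46 of 76 in Mes liver. In the epithelium of the same intestines it was expressed in 77 of 109 cells, at a level of 1.48 to 2.64 in the 7 embryos. In Mes liver, which came from E9.5 embryos alone, Sox9 was 3.503, 1.57 and 1.28 and did not pass the test (0.14 ± 0.47), nor did Mes skin (0.70 ± 0.37, adjusted p = 0.41). In Mes liver 3 of 3 cardiomyocyte genes and 2 of 3 hepatoblast genes were called higher than in the other Mes organs. Which cells carried the Mes label there was not tested. No Sox gene was called by limma in Mes liver (1.45% of genes) or Mes skin (1.85%), where 2 and 0 of 8 had an unadjusted p below 0.05 and edgeR called 1 (Sox17, higher) and 0. The median difference of the 8 Sox genes tested was between -0.19 and 0.0097 in the Epi comparisons and between -0.047 and 0.080 in the Mes comparisons, against -0.028 to 0.018 for all genes over both.

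**Figure D4:**
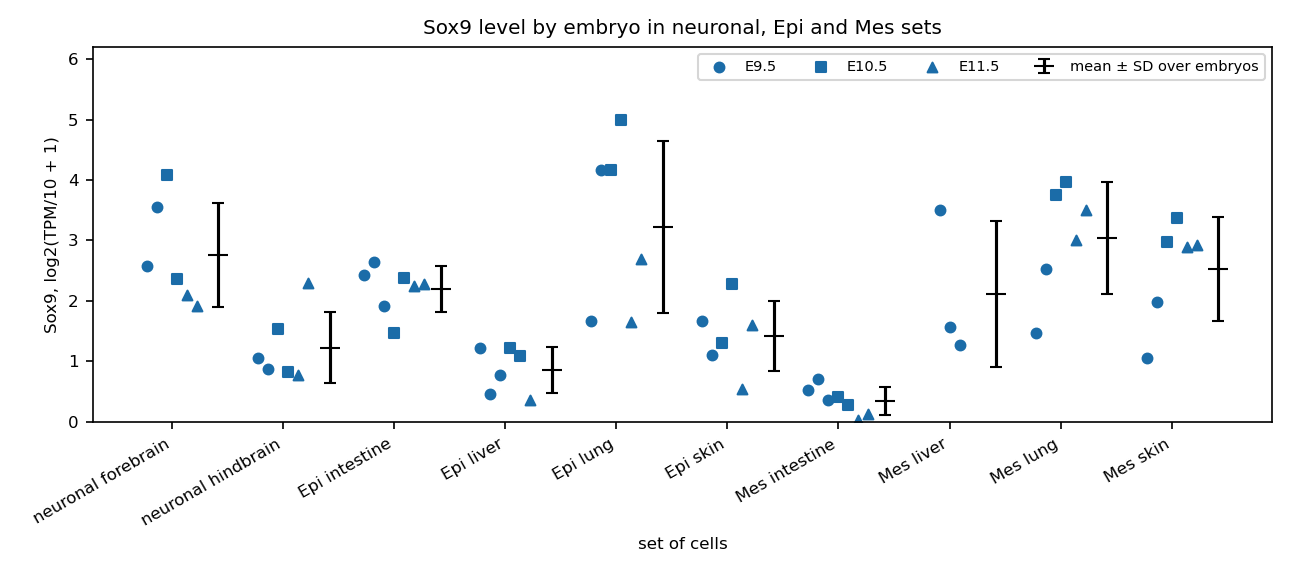
Sox9 level in log2(TPM/10 + 1), 1 point per embryo with the marker giving the day, and mean ± SD over embryos, in 10 sets of cells. Mes intestine (highest embryo 0.71) lies below every embryo of Mes liver, lung and skin (lowest 1.05), and forebrain (1.91 to 4.08) overlaps hindbrain (0.78 to 2.29) through a single hindbrain embryo.

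In neuronal cells Sox9 differed between the brain regions. It was 2.57 and 3.55 at E9.5, 4.08 and 2.35 at E10.5, and 2.10 and 1.91 at E11.5 in forebrain, and 1.06 and 0.87, 1.54 and 0.83, and 0.78 and 2.29 in hindbrain. The forebrain value of 4.08 rested on 9 cells, and the other forebrain values on 27 to 45 cells each. Forebrain was higher in 5 of 6 embryos, embryo 2 of E11.5 being the exception. The difference was 1.53 ± 0.35 (limma, adjusted p = 0.043; 1 of the 6 Sox genes tested, 0.620% of 14195 genes called), and 75.5% of 184 forebrain and 38.3% of 183 hindbrain cells expressed it. The call was lost in the HiSeq 4000 embryos alone (1.25, adjusted p = 0.19), without the gene filter (adjusted p = 0.17), and without any one of embryos 1 and 2 of E9.5, embryos 1 and 2 of E10.5 or embryo 1 of E11.5. The other 5 Sox genes tested were not called, with differences and 95% intervals of 0.45 (-0.08 to 0.98) for Sox2, 0.00 (-0.40 to 0.40) for Sox3, -0.13 (-0.84 to 0.58) for Sox21, 0.03 (-0.62 to 0.68) for Sox4 and -0.17 (-0.77 to 0.44) for Sox11.
Of the neural progenitor genes 0 of 7 were called higher and 2 lower in forebrain, with a median difference of -0.97 against -0.032 for all genes. Of the 5 neuron genes none was called by limma, but all 5 were lower in forebrain, by a median difference of -0.52, and Stmn2 had an unadjusted p of 0.026.
The progenitor and neuron genes stood at summed levels in forebrain of 14.3 to 24.0 and of 3.66 to 25.6, and in hindbrain of 18.3 to 30.03 and of 10.95 to 25.6; their part in the Sox9 difference was not tested.

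Sox10, the SoxE factor of neural crest and peripheral glia, was expressed in 32 cells, between 1 and 9 per embryo. They came from lung (10 mesoderm-derived cells), heart (6), forebrain (4 mesoderm-derived and 2 neuronal) and, with 1 to 4 cells each, skin, somite, liver and hindbrain, and none came from intestine. Sox9 was expressed in 27 of the 32. Among neural crest genes, Ets1 was expressed in 81.3% of the Sox10 cells and 28.3% of the other cells, the neurotrophin receptor gene Ngfr in 46.9% and 10.04%, the crest regulator Foxd3 in 34.4% and 0.113%, and Erbb3 in 6.25% and 0.508%. The SoxE relative Sox8 was expressed in 13 of the 32 cells, and the endothelial list, at 3 or more genes, in 2. Over the embryo means, Sox8 (r = 0.64) and Crtac1 (0.63) were among the genes most like Sox10, which rested on few cells.

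Sox17 and Sox18, the SoxF genes, were also rare. Sox17 was expressed in 27 cells, of which 15 were mesoderm-derived heart cells, and Sox18 in 32, of which 12 were mesoderm-derived heart cells and 8 mesoderm-derived lung cells. They shared 15 cells, which is 55.6% of the Sox17 cells and 46.9% of the Sox18 cells. At least 3 of 10 endothelial genes were expressed in 23 of 27 Sox17 cells (85.2%, other cells 5.62%) and in 23 of 32 Sox18 cells (71.9%, other cells 5.64%). By gene, the shares of these 10 had a median of 6.33% in mesoderm-derived and 5.08% in hematopoietic cells, with maxima of 50.6% and 76.4%. Eng, a TGF-beta co-receptor, was expressed in 85.2% of Sox17 cells and the angiopoietin receptor gene Tek in 81.5%, and the third SoxF gene, Sox7, in 66.7% of Sox17 cells and 50.0% of Sox18 cells. Conversely, of 49 cells with 5 or more endothelial genes, 40.8% expressed Sox17 and 38.8% Sox18. The median depth of Sox17 cells was 507548 UMIs and of Sox18 cells 335804.

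In mesoderm-derived heart cells Sox17 was at 0.26 and 0.46 at E9.5, 0.18 and 0.01 at E10.5, and 0.10 and 0.03 at E11.5, and Sox18 at 0.39 and 0.24, 0.11 and 0.00, and 0.10 and 0.03. Both were highest in the 2 E9.5 embryos. The slopes were -0.15 ± 0.03 (limma, adjusted p = 0.0054) and -0.13 ± 0.04 (adjusted p = 0.028), below the size set for a call. Of the 10 endothelial genes 2 were called lower over days in the same cells (Egfl7 and Tie1), where 2.90% of genes were called. The summed level of the 10 was 9.60 to 11.51 at E9.5, 4.31 to 6.84 at E10.5 and 3.70 to 4.10 at E11.5. Their part in the Sox17 and Sox18 slopes was not tested, and E9.5 here is also the HiSeq 2500 label. Over embryo means Sox18 was most like Flt4 (r = 0.71), Emcn (0.64) and Sox17 (0.61), and Sox17 most like Ptprb (0.68), Gimap4 (0.63) and Flt4 (0.62).

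**Figure D5:**
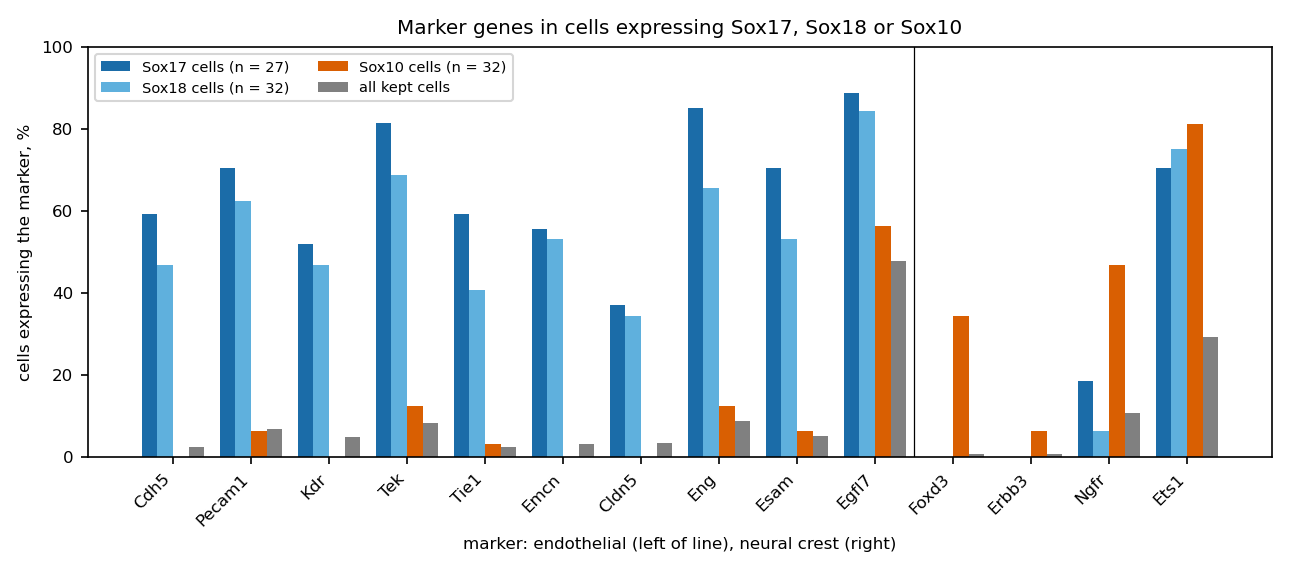
Percent of cells expressing each marker gene, for cells expressing Sox17 (n = 27), Sox18 (n = 32) or Sox10 (n = 32) and for all 1805 kept cells, with endothelial genes left of the line and 4 neural crest genes right of it. Bars start at 0. Tek was expressed in 81.5% of Sox17 cells and Ngfr in 46.9% of Sox10 cells.

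For the widely expressed genes, the nearest patterns over the 89 embryo means were those of Gm1673 (r = 0.92), the actin-binding gene Dbn1 (0.91) and Nnat (0.91) for Sox11, of Smarcd1 (0.76), Nnat (0.76) and Kdm5b (0.75) for Sox4, and of the Wnt receptor gene Fzd2 (0.63), Epha7 (0.61) and the connexin gene Gja1 (0.61) for Sox9. Sox4 and Sox11 had an r of 0.74 with each other.

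The 10 other Sox genes went through the same tests. Sox1, the third SoxB1 gene, was called higher in forebrain (1.05 ± 0.10, limma, adjusted p = 1.6e-11; 1 of 10 called, 1.21% of genes), and none of the 10 was called in another organ or in any Epi or Mes comparison. Sox5 and Sox6, SoxD genes that act beside Sox9 in cartilage, were called higher in neuronal forebrain than hindbrain cells, by 1.03 ± 0.16 (adjusted p = 0.0023) and 1.14 ± 0.22 (adjusted p = 0.013). They were 2 of the 6 other Sox genes tested there, where 0.620% of genes were called. Sox5 was at 1.47 ± 0.27 (SD, n = 6 embryos) in forebrain and 0.44 ± 0.17 in hindbrain, and Sox6 at 1.83 ± 0.44 and 0.69 ± 0.41, and the ranges of the embryos did not overlap for either. The SoxC gene Sox12 rose in Epi lung, by 0.73 ± 0.20 per day (adjusted p = 0.023; 1 of 10 called, 2.65% of genes). The median difference of the 10 genes was between -0.075 and 0.0076 in all 8 organs, and 0.31 for forebrain minus hindbrain against -0.032 for all genes there.

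No Sox gene of the 9 was called by limma for a slope in Epi liver (2.35% of genes called), Epi skin (2.93%), Mes intestine (1.34%), Mes lung (1.69%), Mes skin (1.03%), mesoderm-derived somite (0.378%) or hematopoietic liver (0.716%). At an unadjusted p below 0.05 there were 3 of them in Epi liver (Sox11, Sox17 and Sox18), 2 in Mes intestine (Sox11 and Sox4), 1 in Mes lung (Sox11) and 0 in the other 4 sets. By edgeR there were 2 in Epi liver (Sox11 and Sox4) and 1 in hematopoietic liver (Sox11). Nor was any called for a difference of slopes in Epi intestine (3.34%), Epi liver (1.80%) or Epi skin (1.97%), where 1, 2 and 1 had an unadjusted p below 0.05 and edgeR called 0, 1 and 1. The Sox11 slope in Epi liver was -0.84 ± 0.28 per day (limma, adjusted p = 0.055), from 4.10, 3.36 and 1.99 at E9.5 to 1.74 in the embryo of E11.5, and it was called on the scale log2(TPM + 1), in thinned cells and without embryo 3 of E9.5.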

How the data were processed

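Single-cell libraries were made by the authors with a modified STRT protocol (a modified Smart-seq2 protocol per the labels), in which cells carry barcodes and each captured RNA molecule a UMI. The reads were aligned to mm10 with TopHat2 2.0.12 and counted with HTSeq by the authors, and the deposited values are CPM (UMIs per 1000000 UMIs of a cell, called TPM by the authors). The strand setting and annotation of the counting are not given in the sources used here. Whole UMIs were recovered from the deposited CPM values (100% whole within 0.05 UMIs in 1916 cells).

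Cells that the study kept were used, and 14 identical cell columns (the last cell numbers of 14 samples) were left out, giving 1805 cells, of which 4 had no major group. The groups and the Epi and Mes labels come from the study and were clustered from these cells. An embryo was the replicate. Its value was the mean of log2(TPM/10 + 1), a pseudocount of 1 after division by 10, over at least 3 cells of a set. Genes entered a fit if 3 or more of its cells expressed them. Fits were made with limma 3.58.1 in R 4.3.3 (trended eBayes on contrasts of lmFit), with two-sided tests and Benjamini-Hochberg adjustment over all genes of a contrast. A call needed an adjusted p below 0.05 and a difference of at least 1 (slopes 0.5 per day). Organs were set against the mean of the other 7 with day as covariate, Epi and Mes organs against the other 3. Embryos are separate animals per the labels. Fits were tested on simulated data. Named genes were the 9 Sox genes, the 10 other Sox genes when called, and the 3 genes most like each member. Some genes of these lists, among them 3 of the 7 neural crest and glia genes, are not reported here. The members and gene lists were chosen with earlier results of these data known.

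The same embryos gave several organs, per the labels, which pairs the organ means. The median correlation of deviations between organs of one embryo was 0.19 to 0.39 in the 3 E9.5 embryos and -0.0029 and 0.016 at E10.5 and E11.5 over 14606 genes. The embryo as a block was an alternative. The other alternatives were log2(TPM + 1), no gene filter or 20 cells, at least 5 cells per mean, edgeR 4.0.16 on summed recovered UMIs (calling 0 to 3413 genes per contrast), cells thinned to 100000 UMIs, HiSeq 4000 embryos alone, identical columns kept, and each embryo left out. Depth per cell was 20326 to 2524348 UMIs, and 1577 cells reached the thinning depth. Figures were drawn with matplotlib 3.10.9.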

Additional observations from a re-analysis of the deposited data

Results flagged for a closer look

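The slope of Sox2 on day in Epi lung exceeded the mean slope of Epi intestine, liver and skin by 0.79 per day (95% interval 0.38 to 1.19; limma, adjusted p = 0.0158), which is a difference between organs under the same contrast. The Epi lung levels were 1.05, 0.046, 0.00, 0.021, 2.58 and 1.76 for Sox2 in the 6 embryos from E9.5 to E11.5, and 1 embryo of E11.5 held 18 of the 52 cells. The level of 1.05 came from 3 cells, of which 1 expressed Sox2, and that cell did not express Nkx2-1. Among 68 sets of embryo levels of a Sox gene (4 or more embryos, mean level 0.5 or more), 0 had an embryo whose gap to the others passed Dixon's 95% limit.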

How the results depend on the processing

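Of the 26 calls, 12 held under all 16 alternatives: Sox2 in forebrain and hindbrain, Sox11 in heart, hindbrain and liver, Sox4 in liver, Sox11, Sox4 and Sox9 in Epi liver, Sox9 in Epi lung, Sox11 in Epi skin and Sox9 in Mes intestine. No call changed sign in any alternative. With the embryo as a replicate block 25 of the 26 calls held, and the numbers of calls were 10 between organs, 6 in Epi, 2 in Mes, 1 between brain regions, 6 slopes and 1 difference of slopes, as without it. The log2(TPM + 1) scale gave 17 calls between organs and 2 differences of slopes, and edgeR gave 21 between organs, 12 in Epi, 4 in Mes and 2 differences of slopes, with 17 of the 26 held. The 9 calls lost with edgeR were Sox9 in liver and lung, Sox11 in Epi intestine, the slopes of Sox21 in forebrain, Sox2 in hindbrain and Epi lung, Sox4 in Epi intestine and Sox11 in heart, and the difference of slopes of Sox2. Thinned cells gave 1 call in Mes and lost Sox9 in Mes lung, Sox21 in hindbrain and the Sox11 slope in heart, at least 5 cells per mean gave 2 differences of slopes, and both no gene filter and the HiSeq 4000 embryos alone gave 0 calls between brain regions. Leaving out 1 embryo gave 8 to 10 calls between organs, 5 to 7 in Epi, 1 to 2 in Mes, 0 to 1 between brain regions, 1 to 9 slopes and 0 to 2 differences of slopes. Slopes fell to 1 call without embryo 1 of E11.5, and to 3 without embryo 2 of E11.5 or embryo 2 of E9.5. The call for Sox4 in Epi intestine held in 1 of 7 such fits, and the causes of these changes were not tested. Epi lung rests on 52 cells, 3 of them in each of 2 embryos, and Sox10, Sox17 and Sox18 on 27 to 32 cells each. The neuronal forebrain mean of embryo 1 of E10.5 rests on 9 cells.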
